A study of Mus musculus with 4 samples.

Results

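Autophagy delivers cytoplasm to lysosomes for breakdown, and 33 genes of this route were examined in tibialis anterior muscle (TA, in the shin) and heart of mice lacking MG56 (Hhatl). They were taken as a list by their role, in 7 steps: initiation and nucleation (6 genes), conjugation (5), the ATG8 proteins (5), cargo receptors (4), the regulator Tfeb (1), lysosomal enzymes (9) and lysosomal membrane proteins (3). The array named 18193 genes with at least 1 probe set that carries a single gene symbol, and 32 of the 33 listed genes were among them. Bnip3l shares all its probe sets with a pseudogene and was not analysed here. The other 32 genes had 82 probe sets.

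There were 4 groups, each measured on 1 array: MG56-knockout TA, wild-type TA, MG56-knockout heart and wild-type heart. All mice had the C57BL/6J background and were at postnatal day 9. Per the design text, RNA of 3 knockout mice was pooled, and that of matching wild-type mice likewise, with their number not given in the sources used here. A ratio therefore compares a pool with a pool, no replicate error can be computed, and no test was possible.

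In autophagy, the ULK1 kinase complex starts a membrane at the endoplasmic reticulum, a lipid kinase complex with Beclin 1 marks it, and ubiquitin-like conjugation couples ATG8 proteins (the LC3 and GABARAP families) to its lipids. Receptors such as p62 (Sqstm1) tie cargo to ATG8 proteins, and the closed autophagosome fuses with lysosomes, where cathepsins and glycosidases digest the content. Striated muscle relies on this route for turnover of damaged mitochondria and protein aggregates and for amino acids during fasting, and it is known to be highly active in newborn mice.

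Values are MAS5 signals, a linear brightness per probe set. Signals below 101.3, the median of all of them, were set to that floor. A gene counts as measured in a comparison when either array has it at or over the floor, and it is represented by its brightest such probe set, by the mean over the 4 arrays. The arrays had trimmed mean signals of 496.35 to 496.83. Hhatl itself had a signal of 1078 in knockout TA against 5491 in wild-type TA, and 880 in knockout heart against 2110 in wild-type heart. The labels do not say if the deletion covers that probe set. Of 9 skeletal fibre markers, 0 lay under the floor in the TA pools and 6 in each heart pool; of 9 cardiomyocyte markers, 4 (Myl7, Nppa, Ryr2 and Tnni3) did in the TA pools and 0 in the heart pools. Transcripts of the sex chromosomes were unequal between the pools. Uty, a Y-linked gene, had a signal of 426 in knockout TA against 158 in wild-type TA, and 480 in knockout heart against 210 in wild-type heart. The X-inactivation transcript Xist was 1.44-fold lower in knockout TA and 1.30-fold lower in knockout heart. Among the members, Gla and Lamp2 are X-linked, and the part of pool sex in any ratio was not tested.

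As a whole the list was close to level in knockout muscle, with a few members standing apart. In TA, 2 of 32 measured genes were higher by 1.5-fold or more with the knockout, Sqstm1 and Atg13, against a background of 4.19% of all 11556 measured genes. Tfeb alone was at least 1.5-fold lower, against a background of 4.43%. The median log2 ratio of knockout over wild type was 0.05 for the list and -0.01 for all genes. Above 0 lay 19 members (59.4%, against 48.7% of all genes), and 13 lay below. In heart, 1 of 31 measured genes was at least 1.5-fold higher, Atg7, against a background of 2.68% of 11478 genes, and 0 were 1.5-fold lower, against 4.18%. There the median log2 ratio was 0.03 for the list and -0.002 for all genes, and 19 members lay above 0 (61.3%, against 49.7% of all genes) and 12 below. Shares of members past 1.5-fold were thus near the background in both tissues.

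Other thresholds were read as well. At a log2 ratio of 0.32, 5 of 32 members were higher and 3 lower in knockout TA, against backgrounds of 13.4% and 14.2%. In knockout heart 6 of 31 were higher and 2 lower, against 11.4% and 12.7%. More members were thus higher than lower in both tissues, whereas slightly more of all genes were lower. At 2-fold, Sqstm1 alone was higher in TA (background 0.952%) and 0 members were lower (0.917%), and in heart 0 were higher (0.331%) and 0 lower (1.19%).

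Probe sets of the same gene gave a guide to disagreement between probe sets. They are read on the same arrays from the same RNA, so error between animals, pools or arrays is not in it. Over all genes with several measured probe sets, the median range of log2 ratios within a gene was 0.27 in TA and 0.29 in heart. The 90th percentile was 0.70 in TA and 0.73 in heart. In TA, 6 members exceeded the median range upwards (Atg13, Gabarap, Sqstm1, Bnip3, Ctsl and Ctss) and 3 downwards (Atg14, Tfeb and Ctsz), against 16.9% and 17.4% of all genes. In heart, 7 did so upwards (Ulk1, Ulk2, Atg13, Atg14, Atg7, Sqstm1 and Bnip3) and 2 downwards (Gabarapl1 and Ctsz), against 13.8% and 14.8%. The other measured members differed between the pools by no more than this median range. Passing it does not place a member beyond the error between pools, which could not be computed.

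**Figure D1:**
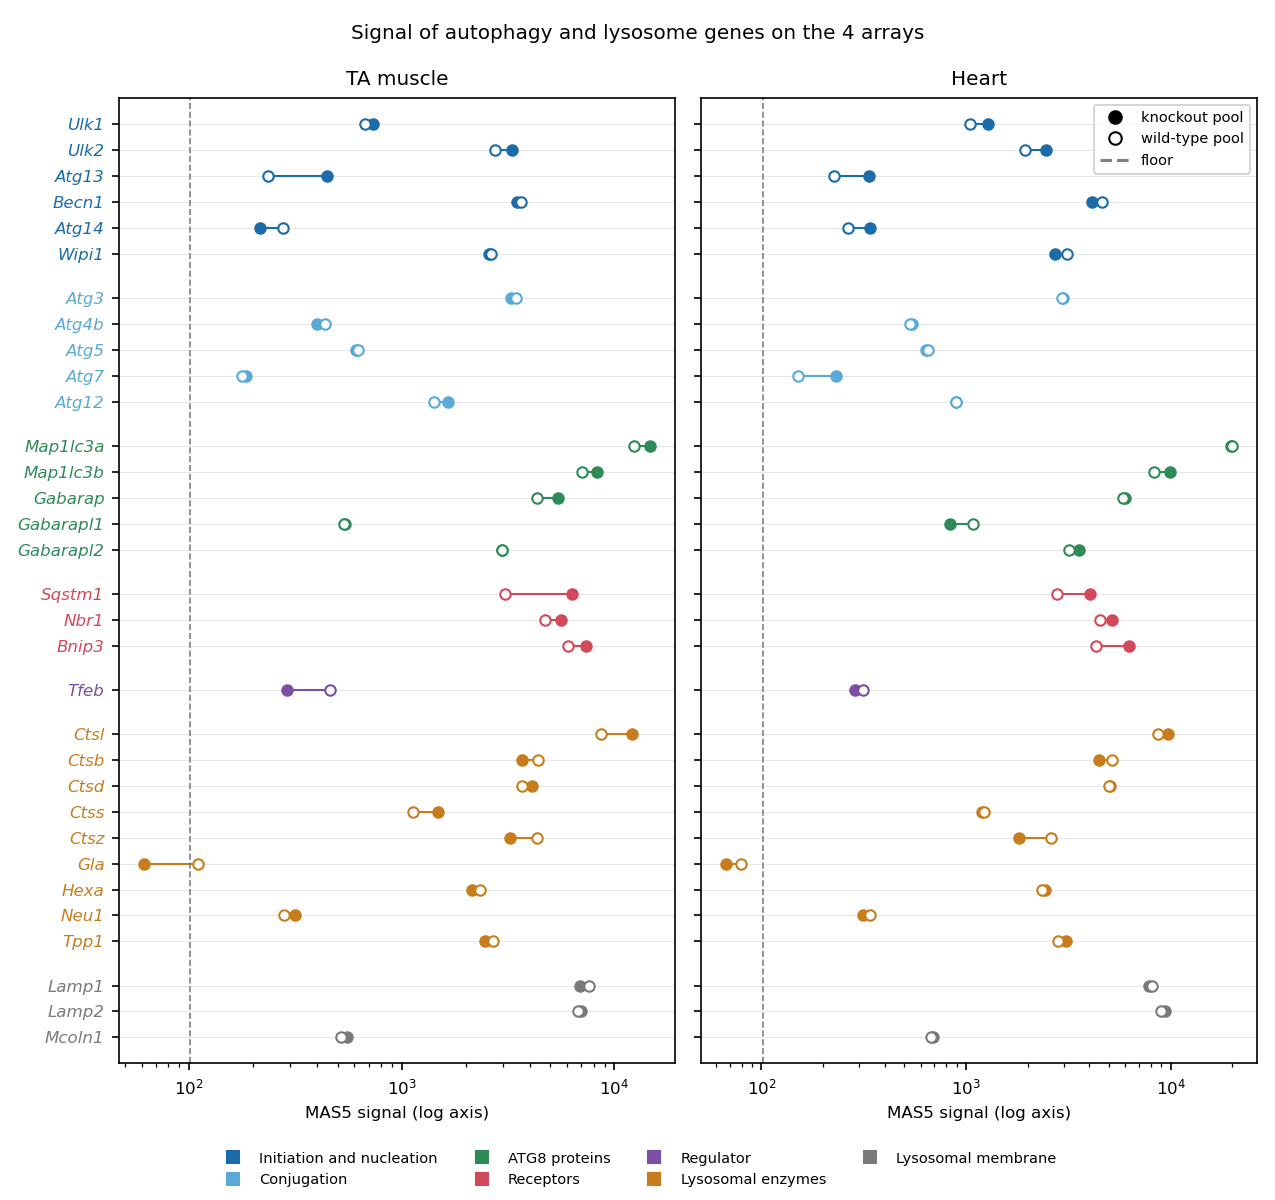
Signal of each gene's brightest probe set on the 4 arrays, on a log axis, in TA (left) and heart (right), with filled points for the knockout pool, open points for the wild-type pool and the floor dashed. Points of a gene nearly coincide for most rows; the widest gaps in TA are those of Sqstm1, Atg13, Tfeb and Gla, the last with its knockout signal under the floor.

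Among the cargo receptors, all 3 measured genes were higher in both knockout pools, as were 29.3% of all 10843 genes measured in both tissues. Sqstm1, which encodes p62, the receptor that binds ubiquitinated cargo and is itself degraded by autophagy, had a signal of 6309 in knockout TA against 3076 in wild-type TA, a 2.05-fold difference that ranked 100th of 11556 genes from the top. In heart it had 4039 in the knockout pool against 2776 in the wild-type pool, 1.46-fold higher. Both knockout pools thus lay above both wild-type pools, with the TA pair further apart. Its other probe set stayed under the floor on all 4 arrays. Nbr1, a receptor related to p62, had 5622 in knockout TA against 4716 in wild-type TA, and 5188 in knockout heart against 4524 in wild-type heart. These are log2 ratios of 0.25 and 0.20, and a dimmer Nbr1 probe set gave 0.23 and 0.54. Bnip3, a mitochondrial outer membrane protein that acts as a mitophagy receptor, had 7374 in knockout TA against 6033 in wild-type TA, and 6280 in knockout heart against 4310 in wild-type heart. Here the order of tissues was the reverse of that of Sqstm1, with 1.22-fold in TA and 1.46-fold in heart, from a single probe set.

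At the initiation step, Atg13 stood apart from the other 5 genes. Atg13 encodes the adaptor subunit of the ULK1 kinase complex. Its signal was 446 in knockout TA against 235 in wild-type TA, 1.90-fold higher and 136th of 11556 genes from the top. A dimmer probe set gave 201 in knockout TA against 125 in wild-type TA, a log2 ratio of 0.68 beside 0.92 on the brighter. In heart the brighter set read 337 in the knockout pool against 225 in the wild-type pool (log2 ratio 0.58, 1.49-fold, just short of 1.5), while the dimmer read 168 in the knockout pool against 157 in the wild-type pool (0.10). The heart difference therefore rests on 1 of its 2 measured probe sets.

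The kinase genes of the step were below 1.5-fold in both tissues on their brightest probe sets. Ulk1, the kinase that starts autophagy, had 732 in knockout TA against 672 in wild-type TA, and 1285 in knockout heart against 1049 in wild-type heart. Its log2 ratios were 0.12 and 0.29, and a dim second probe set, measured in heart only, read 210 in the knockout pool against 118 in the wild-type pool. Ulk2, its paralogue, had 3290 in knockout TA against 2761 in wild-type TA, and 2464 in knockout heart against 1944 in wild-type heart. All 4 Ulk2 probe sets measured in heart pointed upwards, with log2 ratios of 0.08 to 0.35, whereas those in TA ran from -0.09 to 0.55.

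Genes of the lipid kinase complex and its effectors showed no common direction. Atg14, the subunit that directs the Beclin 1 complex to autophagy, had 217 in knockout TA against 278 in wild-type TA, and 340 in knockout heart against 264 in wild-type heart. On its 1 dim probe set the log2 ratios were -0.36 and 0.37. The difference of these, TA minus heart, was -0.73, and Atg14 was the only 1 of 31 members at least 1.5-fold below (background 5.09% of 10843 genes), with 0 at least 1.5-fold above (6.43%). At a log2 difference of 0.32, 5 members were above (17.5%) and 3 below (15.9%), and at 2-fold 0 were above (1.66%) and 0 below (0.83%). Becn1, which encodes Beclin 1, had 3497 in knockout TA against 3626 in wild-type TA, and 4127 in knockout heart against 4591 in wild-type heart, log2 ratios of -0.05 and -0.15. Wipi1, which binds the phosphoinositide that this complex makes, had 2586 in knockout TA against 2629 in wild-type TA, and 2734 in knockout heart against 3111 in wild-type heart. Dimmer probe sets of both scattered widely: those of Becn1 in heart went down to -1.20, on a set with a knockout signal of 19, and those of Wipi1 in TA ran from -0.29 to 0.77.

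The conjugation genes were close to level in TA on their brightest probe sets, with log2 ratios of -0.13 to 0.23. In heart Atg7, the E1-like enzyme that activates both ubiquitin-like conjugates, had 231 in the knockout pool against 151 in the wild-type pool, 1.53-fold higher. Quantile normalization over the 4 arrays or within each tissue took it just short of 1.5-fold, to log2 ratios of 0.56 and 0.57. A dimmer Atg7 probe set read 155 in the knockout pool against 52 in the wild-type pool, at least 1.53-fold once raised to the floor. In TA the brighter set read 186 in the knockout pool and 179 in the wild-type pool. Both Atg7 probe sets were dim. Atg12, the conjugate partner of Atg5, had 1659 in knockout TA against 1417 in wild-type TA, and 889 in knockout heart against 890 in wild-type heart. Its second probe set placed it lower in knockout heart, at 241 against 367 in wild-type heart. Atg3, the E2-like enzyme, Atg4b, the protease that primes ATG8 proteins, and Atg5 had log2 ratios of -0.13 to 0.04 in both tissues on their brightest probe sets. Dimmer sets disagreed: 1 of Atg5 read 345 in knockout TA against 231 in wild-type TA and 319 in knockout heart against 247 in wild-type heart, and 1 of Atg4b read 321 in knockout TA against 449 in wild-type TA.

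Of the ATG8 genes, Map1lc3a, Map1lc3b and Gabarap were higher in knockout TA by small amounts. All 5 had a log2 ratio above 0, with a median of 0.22, against 48.7% of all genes above 0, but Gabarapl1 and Gabarapl2 were at 0.02 and 0.005 and turned to -0.02 and -0.07 with the median over probe sets. Map1lc3b, one of the LC3 proteins commonly used to mark autophagosomes, had 8269 in knockout TA against 7083 in wild-type TA, and 9933 in knockout heart against 8249 in wild-type heart. Its 3 measured probe sets were higher in both knockout pools, with log2 ratios of 0.22 to 0.35 in TA and 0.27 to 0.48 in heart. Map1lc3a had 14747 in knockout TA against 12334 in wild-type TA, and 19621 in knockout heart against 19845 in wild-type heart, so its pools were level in heart. Gabarap had 5439 in knockout TA against 4317 in wild-type TA (1.26-fold higher), and 5977 in knockout heart against 5856 in wild-type heart.

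The last 2 ATG8 genes were level in TA. Gabarapl2 had 2982 in knockout TA and 2972 in wild-type TA, and 3568 in knockout heart against 3184 in wild-type heart. Gabarapl1 had 544 in knockout TA and 537 in wild-type TA, and 830 in knockout heart against 1076 in wild-type heart. That probe set can match several transcripts, and the gene's other probe set pointed the opposite way in heart, at 528 in the knockout pool against 416 in the wild-type pool, so no direction can be given for Gabarapl1 in heart.

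**Figure D2:**
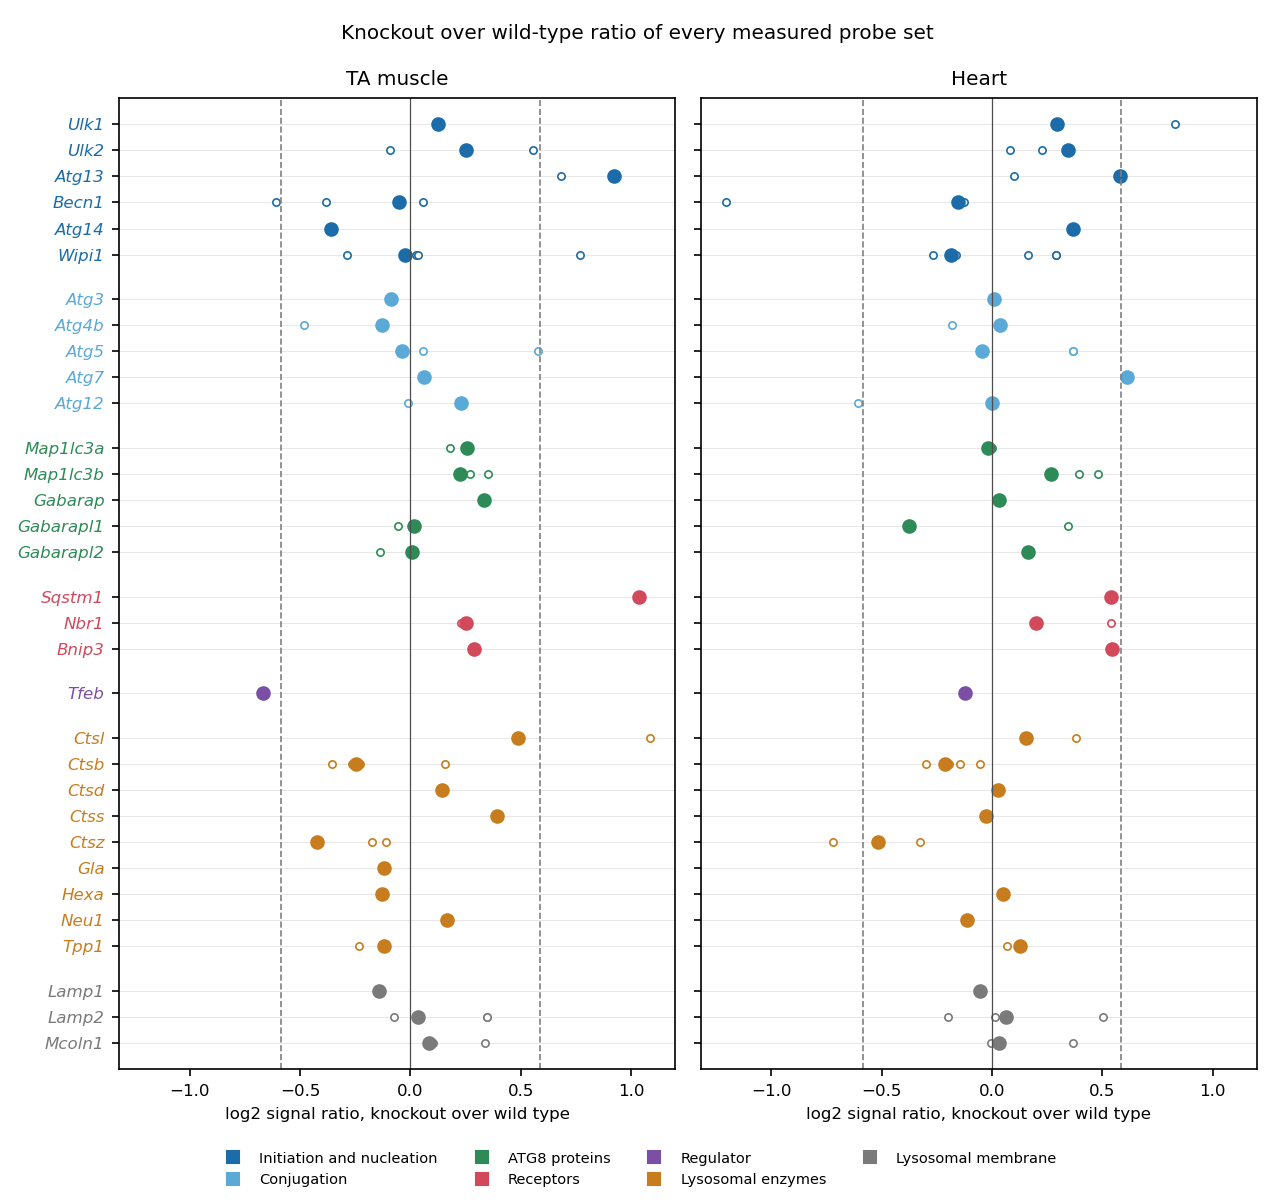
Log2 signal ratio of knockout over wild type for every measured probe set of each gene in TA (left) and heart (right); large points are the probe sets that stand for the gene, small open points the others, and dashed lines mark 1.5-fold. Sqstm1 and Atg13 lie right of the line in TA and Tfeb left of it, while Becn1, Wipi1 and Gabarapl1 show probe sets on both sides of 0.

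Tfeb, the transcription factor gene that switches on lysosomal and autophagy genes, was the only member at least 1.5-fold lower in TA with the floor used here. Without a floor Gla, at -0.83, lay below it. The single Tfeb probe set had a signal of 291 in knockout TA against 463 in wild-type TA, 1.59-fold lower and 379th of 11556 genes from the bottom. In heart it read 287 in the knockout pool against 313 in the wild-type pool, a log2 ratio of -0.12. Wild-type TA thus had the highest of the 4 signals, and the other 3 pools lay close together.

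TFEB binds an E-box, CACGTG, in the promoters of lysosomal genes, best in the longer form TCACGTGA, so the members' promoters were searched for both. The 250 bases before each start site came from RefSeq (GRCm38.p6), where 28 of the 33 members had an entry; Becn1, Atg12, Map1lc3a, Bnip3l and Ctsb had none there. CACGTG, which reads the same on both strands, stood in 9 of the 31 member promoters (29%), against 6.02% of all 32851 promoters. TCACGTGA, which contains it, stood in 4 of 31 (12.9%), against 0.785%. Those 4 belonged to Atg3, Ctsd, Gla and Mcoln1. Lamp1 is shown because it holds 4 copies of CACGTG, and Mcoln1, Ctsd and Atg3 as 3 of the 4 with the longer form (Gla, near the limit of measurement, holds it at 2 places); capitals mark the matches, CACGTG or TCACGTGA.
Lamp1, chr8:13158911-13159160, plus strand: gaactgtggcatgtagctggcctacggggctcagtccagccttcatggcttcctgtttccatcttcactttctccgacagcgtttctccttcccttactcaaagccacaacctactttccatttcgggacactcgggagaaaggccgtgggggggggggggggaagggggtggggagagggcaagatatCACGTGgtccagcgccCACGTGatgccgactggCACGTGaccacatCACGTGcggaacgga
Mcoln1, chr8:3500269-3500518, plus strand: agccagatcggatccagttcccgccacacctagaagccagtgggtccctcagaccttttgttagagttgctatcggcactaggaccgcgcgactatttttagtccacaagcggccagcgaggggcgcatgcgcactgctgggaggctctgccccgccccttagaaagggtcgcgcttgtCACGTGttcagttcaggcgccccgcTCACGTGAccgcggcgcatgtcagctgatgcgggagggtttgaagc
Ctsd, chr7:142387828-142388077, minus strand: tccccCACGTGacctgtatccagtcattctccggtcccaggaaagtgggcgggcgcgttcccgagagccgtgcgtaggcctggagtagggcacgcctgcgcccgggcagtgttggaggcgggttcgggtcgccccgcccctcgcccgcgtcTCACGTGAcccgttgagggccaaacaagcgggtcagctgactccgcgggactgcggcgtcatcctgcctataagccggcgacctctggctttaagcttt
Atg3, chr16:45158579-45158828, plus strand: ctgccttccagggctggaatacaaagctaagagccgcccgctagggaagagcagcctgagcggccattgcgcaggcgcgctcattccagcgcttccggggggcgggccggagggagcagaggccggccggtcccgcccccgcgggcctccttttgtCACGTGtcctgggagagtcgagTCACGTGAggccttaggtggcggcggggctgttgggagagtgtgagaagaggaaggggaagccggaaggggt
These matches are letters in a window and do not show binding. The log2 ratios in knockout TA were -0.14 for Lamp1, 0.08 for Mcoln1, 0.14 for Ctsd and -0.09 for Atg3, beside -0.67 for Tfeb. Of the other genes with CACGTG, Ctsl had 0.49, Bnip3 0.29, Atg7 0.06 and Atg5 -0.04, and Gla was at least 1.09-fold lower.

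For comparison, the promoters of the members with the highest ratios in knockout TA are given. Other motifs searched on both strands were TGATGNAA (the form bound by ATF4 with a C/EBP partner), TGACNNNGC (the core bound by NRF2) and GTAAACA (bound by FoxO factors). In the promoters below, capitals mark TGACNNNGC in Atg13, and CACGTG and then TGATGNAA in Ctsl. There TGACNNNGC and TGATGNAA read on the strand opposite the printed one. Sqstm1 held none of the 5 motifs in this window.
Sqstm1, chr11:50210821-50211070, minus strand: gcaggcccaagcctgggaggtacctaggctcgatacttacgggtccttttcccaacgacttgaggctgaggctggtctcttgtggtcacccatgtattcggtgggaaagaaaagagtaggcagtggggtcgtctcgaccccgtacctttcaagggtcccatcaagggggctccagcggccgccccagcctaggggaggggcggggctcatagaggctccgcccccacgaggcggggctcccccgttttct
Atg13, chr2:91710593-91710842, minus strand: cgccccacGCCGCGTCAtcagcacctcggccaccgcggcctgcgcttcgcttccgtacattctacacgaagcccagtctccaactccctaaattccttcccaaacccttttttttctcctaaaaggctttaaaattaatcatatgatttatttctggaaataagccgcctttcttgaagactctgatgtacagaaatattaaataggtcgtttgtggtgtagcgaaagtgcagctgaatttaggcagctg
Ctsl, chr13:64370521-64370770, minus strand: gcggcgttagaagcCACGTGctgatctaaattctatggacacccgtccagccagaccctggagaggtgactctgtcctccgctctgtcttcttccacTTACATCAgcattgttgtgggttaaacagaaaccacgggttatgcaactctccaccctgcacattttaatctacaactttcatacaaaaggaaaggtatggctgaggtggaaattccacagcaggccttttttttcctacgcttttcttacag
TGACNNNGC stood in 6 of 31 member promoters (19.4%, against 10.2% of all), TGATGNAA in 1 (3.23%, against 3.45%) and GTAAACA in 0 (against 3.17%).

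Among the lysosomal enzymes, cathepsin genes differed from each other, while Hexa, Neu1 and Tpp1 were close to level. Ctsl, the cysteine protease cathepsin L, had 12177 in knockout TA against 8693 in wild-type TA, 1.40-fold higher. A dim probe set of Ctsl gave 215 in knockout TA against 93 in wild-type TA, at least 2.12-fold. In heart Ctsl read 9657 in the knockout pool against 8692 in the wild-type pool. The wild-type pools thus had the same Ctsl level in both tissues, and the knockout pools lay above it, TA more than heart.

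Ctsz, the carboxypeptidase cathepsin Z, was lower in both knockout pools. It had 3237 in knockout TA against 4339 in wild-type TA (1.34-fold lower), and 1810 in knockout heart against 2588 in wild-type heart (1.43-fold lower). All 3 of its probe sets were below 0 in both tissues, with log2 ratios of -0.42 to -0.11 in TA and -0.72 to -0.32 in heart. Ctsb, cathepsin B, was slightly lower as well, with 3680 in knockout TA against 4367 in wild-type TA and 4436 in knockout heart against 5138 in wild-type heart. Its 5 probe sets were all below 0 in heart, and 4 of 5 were in TA. Ctsd, the aspartic protease cathepsin D, had 4084 in knockout TA against 3702 in wild-type TA, and 5073 in knockout heart against 4986 in wild-type heart.

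Ctss, cathepsin S, is known as a protease of macrophages and other antigen-presenting cells. It had 1484 in knockout TA against 1131 in wild-type TA, 1.31-fold higher, and 1200 in knockout heart against 1222 in wild-type heart. Of 11 measured macrophage markers, 9 were above 0 in knockout TA (81.8%, against 48.7% of all genes), with a median log2 ratio of 0.10. The summed signal of all 12 was 15436 in knockout TA against 15254 in wild-type TA, and 10392 in knockout heart against 10436 in wild-type heart. Itgam lay under the floor on all arrays, and 0 of the 11 reached 1.5-fold in either tissue. Csf1r, the receptor gene that defines these cells, read 5046 in knockout TA and 5044 in wild-type TA, while C1qc was 1.40-fold higher and Mrc1 1.34-fold lower in knockout TA. Neutrophil genes were dim, and S100a8 read 740 in knockout TA against 141 in wild-type TA. The part of such cells in the Ctss ratio was not tested, and in bulk tissue more cells of a type and more RNA per cell cannot be told apart.

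Hexa, Tpp1 and Neu1 stayed within 1.12-fold in TA and 1.09-fold in heart on their brightest probe sets. Hexa, a subunit of beta-hexosaminidase, had 2142 in knockout TA against 2342 in wild-type TA, and 2436 in knockout heart against 2351 in wild-type heart. Tpp1, tripeptidyl peptidase, had 2468 in knockout TA against 2680 in wild-type TA, and 3090 in knockout heart against 2826 in wild-type heart. Neu1, the lysosomal sialidase gene, had 316 in knockout TA against 281 in wild-type TA, and 313 in knockout heart against 339 in wild-type heart. Directions were opposite in the tissues for all 3, at sizes within the disagreement between probe sets. Gla, alpha-galactosidase A, was near the limit of measurement, with 61.9 in knockout TA against 110 in wild-type TA (at least 1.09-fold lower once raised to the floor, and a log2 ratio of -0.83 without a floor), and in heart its signals were 67.2 with the knockout and 79.4 in wild type, too dim to measure.

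The lysosomal membrane genes were close to level. Lamp1, a major glycoprotein of that membrane, had 6881 in knockout TA against 7591 in wild-type TA, and 7838 in knockout heart against 8140 in wild-type heart. Lamp2, which is needed for fusion of autophagosomes with lysosomes, had 6951 in knockout TA against 6779 in wild-type TA, and 9396 in knockout heart against 9004 in wild-type heart. Mcoln1, the calcium channel mucolipin 1, had 552 in knockout TA against 521 in wild-type TA, and 690 in knockout heart against 675 in wild-type heart. All 3 were within 1.10-fold in both tissues on the probe sets that stand for them. Of 3 dimmer Lamp2 probe sets, 2 were above 0 in both tissues and 1 below in both. The widest apart read 2160 in knockout TA against 1699 in wild-type TA, and 2273 in knockout heart against 1605 in wild-type heart.

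Directions in the tissues were then set side by side. Of the 19 measured genes of initiation, conjugation, ATG8 proteins and receptors, 10 were above 0 in both knockout pools (52.6%, against 29.3% of all 10843 genes measured in both) and 3 below in both (15.8%, against 30.5%). Of the 11 lysosomal enzyme and membrane genes, 4 were above 0 in both (36.4%) and 3 below in both (27.3%). Across 31 members the log2 ratios of TA and heart had a Pearson correlation of 0.56 and a Spearman correlation of 0.46, against 0.31 and 0.27 across all genes. These are correlations across genes, which are not independent replicates, and tissues of a genotype may come from the same mice. Sqstm1 and Atg13 were the farthest members in that shared upper direction, and Ctsz in the lower.

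**Figure D3:**
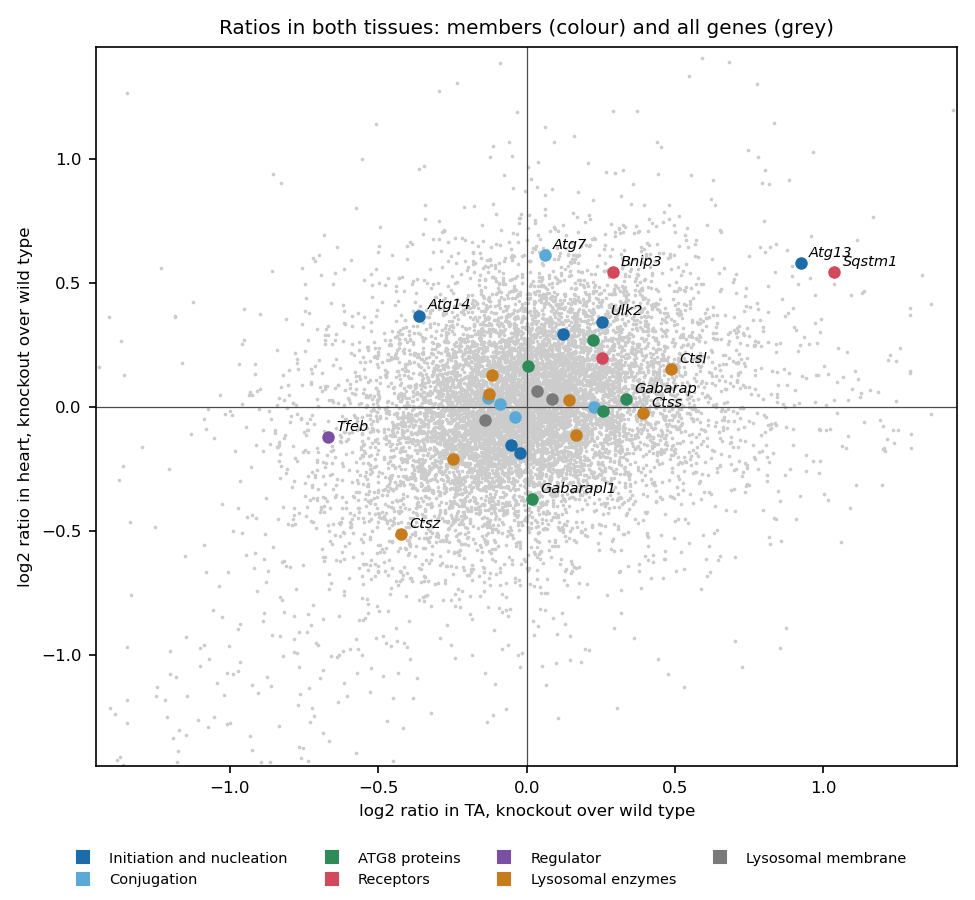
Log2 ratio of knockout over wild type in TA (horizontal) and heart (vertical), with members coloured by step and all other measured genes in grey; genes beyond the axes are not drawn. Sqstm1 (1.04 and 0.54) and Atg13 (0.92 and 0.58) lie apart at the upper right, Ctsz (-0.42 and -0.52) at the lower left, and most members lie within the grey cloud.

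Other genes of the pathway, 138 in 6 lists, were read the same way. Of 28 other autophagosome genes, 1 was at least 1.5-fold higher in knockout TA (3.57%, against 4.19% of all genes) and 0 lower (against 4.43%). In that tissue 23 were above 0 (82.1%, against 48.7% of all genes). In heart 14 were above 0, and the medians of the log2 ratios were 0.10 for TA and 0.01 for heart. The gene past 1.5-fold was Wdr45, a relative of Wipi1, with 1041 in knockout TA against 638 in wild-type TA, and 934 in knockout heart against 645 in wild-type heart. Both of its probe sets were higher in knockout TA, at log2 ratios of 0.71 and 0.76. Of 13 measured other receptors, 1 was at least 1.5-fold higher in knockout TA (7.69%, against 4.19% of all genes) and 0 lower (against 4.43%). In heart 0 passed 1.5-fold, against 2.68% higher and 4.18% lower. The gene past it in TA was Fkbp8, a mitochondrial outer membrane protein. It read 306 in knockout TA against 188 in wild-type TA, and 274 in knockout heart against 367 in wild-type heart. These are opposite directions on 1 probe set.

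Genes that acidify or fill the lysosome gave medians of -0.08 to 0.12. The 16 measured vacuolar ATPase genes had median log2 ratios of 0.12 (TA) and -0.08 (heart). Of them, 11 were above 0 in TA (68.8%, against 48.7% of all genes) and 5 in heart (31.2%, against 49.7%). In TA 0 were at least 1.5-fold higher (against 4.19% of all genes) and 1 was lower (6.25%, against 4.43%). In heart 0 passed 1.5-fold, against 2.68% higher and 4.18% lower. The lower gene in TA was Atp6ap1, an accessory subunit of that proton pump. It read 2327 in knockout TA against 3517 in wild-type TA (1.51-fold lower), and 2367 in knockout heart against 3272 in wild-type heart. Of 33 other lysosomal enzymes, 0 passed 1.5-fold in TA, against 4.19% of all genes higher and 4.43% lower. In heart 1 was higher (3.03%, against 2.68% of all genes) and 0 lower (against 4.18%). The higher gene was Ctsf (cathepsin F), at 620 in the knockout pool against 391 in the wild-type pool. Medians were -0.06 in TA and -0.03 in heart. The 16 other membrane genes had medians of -0.02 and -0.04, with 0 past 1.5-fold in either tissue, against the same shares of all genes.

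Of 23 regulators of the route by nutrients and stress, 2 were at least 1.5-fold higher in knockout TA and 2 in knockout heart (8.7% each, against 4.19% and 2.68% of all genes). In TA these were Atf4, the transcription factor of the integrated stress response, with 8586 in the knockout pool against 4795 in the wild-type pool, and Nfe2l2, which encodes the oxidative stress factor NRF2, with 2518 in the knockout pool against 1573 in the wild-type pool. A second Atf4 probe set was higher in knockout TA too, at 3758 against 1865 in wild-type TA. In heart they were Flcn, which encodes folliculin of the lysosomal nutrient-sensing machinery, with 2730 in the knockout pool against 1750 in the wild-type pool, and Ddit4, an inhibitor gene of mTORC1, with 2305 in the knockout pool against 1510 in the wild-type pool. At least 1.5-fold lower were 0 genes in knockout TA (against 4.43% of all genes) and 1 in knockout heart (4.35%, against 4.18%). The latter was Prkaa1, a catalytic subunit of the energy sensor AMPK, 1.57-fold lower at 273 against 429 in wild-type heart. The list's medians were 0.13 in TA and 0.09 in heart, and 17 of 23 genes were above 0 in each tissue, against 48.7% and 49.7% of all genes.

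**Figure D4:**
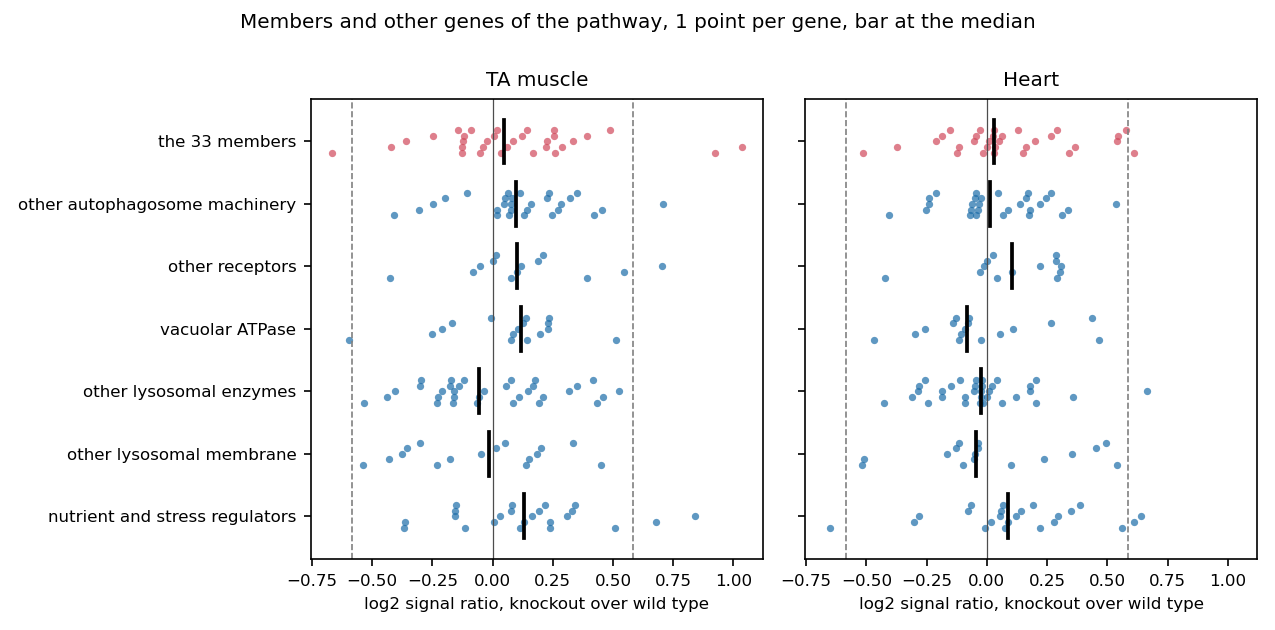
Log2 ratio of knockout over wild type for each measured gene of the members (red; 32 in TA, 31 in heart) and of 6 other lists of the pathway (blue), with a bar at each list's median and dashed lines at 1.5-fold. Medians lie between -0.06 and 0.13 in TA and between -0.08 and 0.10 in heart, and few genes pass the dashed lines.

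Between the wild-type tissues, few members passed 1.5-fold. In TA over heart, 2 of 32 were at least 1.5-fold higher, Atg12 and Ctsz, against a background of 14.5% of 11887 genes, and 3 were at least 1.5-fold lower, Gabarapl1, Map1lc3a and Ulk1, against 18%. With the median over probe sets Atg12 had 0.55, Ctsz 0.55 and Ulk1 -0.43, all short of 1.5-fold, and Ulk1 was also short of it, at -0.57, when ratios were centred on all genes. At a log2 ratio of 0.32, 5 were higher (24.6%) and 8 lower (31.4%), and at 2-fold 0 were higher (7.55%) and 1 lower (7.79%). The median log2 ratio was -0.09 for the members and -0.07 for all genes. The wild-type arrays are the same ones that serve in the knockout ratios, so these comparisons are not independent of them.

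All 5 ATG8 genes were below 0 in TA over heart, as were 55.1% of all genes, with a median log2 ratio of -0.44. Map1lc3a had 12334 in TA against 19845 in heart, 1.61-fold lower, and its other probe set 4534 in TA against 9282 in heart. Gabarapl1 had 537 in TA against 1076 in heart, 2.0-fold lower, but 344 in TA against 416 in heart on its other probe set. Gabarap was 1.36-fold lower in TA, Map1lc3b 1.16-fold on its brightest of 3 probe sets and Gabarapl2 1.07-fold. Several lysosomal genes were lower in TA too, among them Ctsd (3702 in TA against 4986 in heart), Lamp2 (6779 in TA against 9004 in heart) and Mcoln1 (521 in TA against 675 in heart).

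Higher in TA were Atg12, at 1417 in TA against 890 in heart (1.59-fold), and Ctsz, at 4339 in TA against 2588 in heart (1.68-fold). The dimmest Ctsz probe set was level, at 1180 in TA against 1173 in heart. Ulk kinases split, with Ulk1 at 672 in TA against 1049 in heart and Ulk2 at 2761 in TA against 1944 in heart. Ulk2 was not uniform, its 3 measured probe sets running from -0.23 to 0.82 on the log2 scale. Tfeb read 463 in TA against 313 in heart, 1.48-fold higher. Macrophage markers summed to 15254 in TA against 10436 in heart; their part in the Ctsz ratio was not tested. Among the regulators, Deptor, an mTOR-binding inhibitor gene, had 3431 in TA against 398 in heart, and Mitf, a relative of Tfeb, 511 in TA against 2894 in heart. Of the 34 other lysosomal enzymes measured, 3 were at least 1.5-fold higher in TA and 9 lower, against 14.5% and 18% of all genes.

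**Figure D5:**
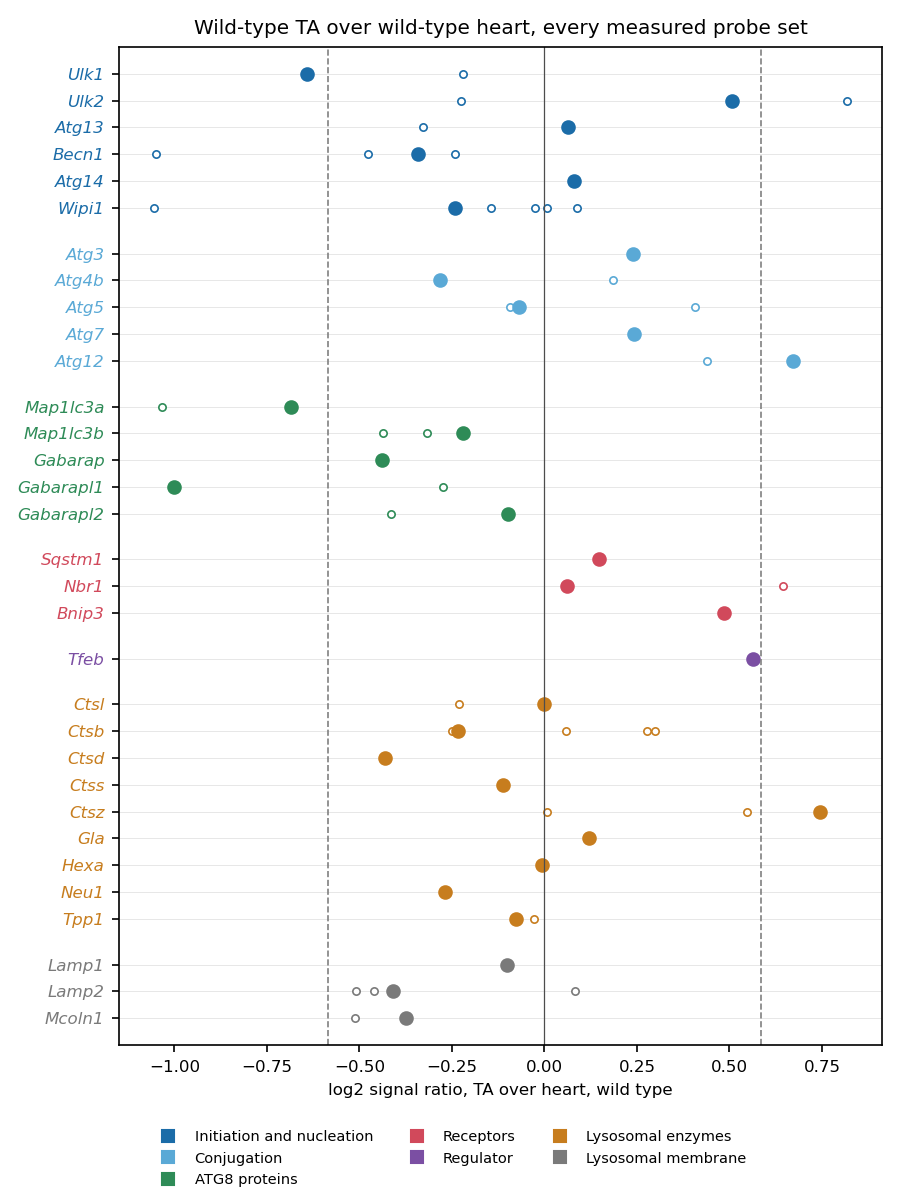
Log2 signal ratio of wild-type TA over wild-type heart for every measured probe set; large points stand for the gene, small open points are its other probe sets, and dashed lines mark 1.5-fold. The 5 ATG8 genes all lie left of 0, Atg12 and Ctsz lie right of the dashed line, and Ulk1 and Ulk2 lie on opposite sides.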

How the data were processed

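Affymetrix mouse arrays were hybridised with pooled total RNA, 1 array for each of 4 groups. The authors deposited linear intensity signals, 1 for each probe set, and the submitters' processing notes name MAS5. Its version and scaling target are not stated there. Of 45037 probe sets, 34945 had 1 gene symbol in the platform's annotation and were used, 932 had several and 9160 none. Gene identifiers of 34741 matched RefSeq (GRCm38.p6), and 0 symbols changed.

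Log2 ratios were taken with the floor described above, with Python 3.11.15, numpy 2.4.6 and pandas 2.3.3. Members were counted at 1.5-fold beside all genes measured. With 1 array a group no p-value was computed, and the number of arrays limits precision. The code for ratios and counts was checked on simulated arrays with larger changes planted in bright genes. That check does not cover calls near 1.5-fold or on dim signals. All members are named; of the other lists, up to 4 genes each way past 1.5-fold in a comparison. Of promoter entries, 250 bases before the start were searched for 5 motifs and 50 after it left off. Members, lists, motifs and alternatives were chosen with earlier results of these data known. Other normalizations, floors, probe set rules and fold thresholds were tried.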

Additional observations from a re-analysis of the deposited data

How the results depend on the processing

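Counts of members past 1.5-fold were small, so 1 gene could move them by more than 1.5 times. For knockout over wild-type TA (2 higher, 1 lower), 2 were lower with a 25th-percentile floor (26.8) or no floor, Gla joining Tfeb at a log2 ratio of -0.83. A 75th-percentile floor (471.5) left 25 members measured, of which 1 was higher and 0 lower. At a log2 ratio of 0.32 the counts were 5 and 3, and at 2-fold 1 and 0. For knockout over wild-type heart (1 higher, 0 lower), quantile normalization over the 4 arrays gave 0 higher (Atg7 had 0.56, and 0.57 with it within each tissue, where Bnip3 passed instead at 0.59), as did the 75th-percentile floor, which left Atg7 unmeasured, and counting at 2-fold; at 0.32, 6 were higher and 2 lower. For wild-type TA over heart (2 higher, 3 lower), the median over probe sets gave 0 higher. At 0.32 the counts were 5 and 8, and at 2-fold 0 and 1. For the difference between tissues (0 higher, 1 lower), 2 were lower under the 25th-percentile floor and 0 under the 75th; at 0.32, 5 were higher and 3 lower, and at 2-fold 0 lower. Where no construction explains a change, the cause was not tested. Medians over the members moved by no more than 0.1 and ran from 0.05 to 0.08 in TA and from 0.03 to 0.05 in heart. Sqstm1, Atg13 and Tfeb stayed past 1.5-fold in TA under every normalization, floor and probe set rule that measured them, with ranges of 1.01 to 1.04, 0.80 to 0.93 and -0.67 to -0.66. Atg13 and Tfeb were not measured in TA under the 75th-percentile floor. Ctsl passed it under 1 of 10 settings, the median over probe sets (0.79). Without probe sets that can match several transcripts, Gabarapl1 had 0.34 in heart. Ratios of the brightest Uty, Kdm5d, Eif2s3y and Xist probe sets were the same without a floor. No paired analysis was possible because each group has 1 array. Signal over background limits Atg7, Gla, Atg13, Atg14 and Neu1 most, since their signals lie nearest the floor.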

Other observations

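Genes with TCACGTGA in their promoter were also read over the whole array. In knockout over wild-type TA, the 171 measured genes with that motif in the 250 bases before the start had a median log2 ratio of 0.07. For 9193 genes with a RefSeq promoter that lacks it, the median was -0.01. Of the 171, 6 were at least 1.5-fold higher (3.51%, against 4.19% of all genes) and 4 lower (2.34%, against 4.43%). The shorter CACGTG gave a median of 0.01 over 935 genes in TA, TGACNNNGC 0.01, GTAAACA -0.001 and TGATGNAA -0.02. For each of these motifs the genes without it had a median of -0.01. In knockout over wild-type heart, 167 genes with TCACGTGA had a median of 0.01, against -0.003 for genes without it. Of the 167, 4 were higher (2.4%, against 2.68%) and 6 lower (3.59%, against 4.18%). A match to a motif does not show binding.

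Several genes had probe sets that pointed opposite ways. In TA 9 of 18 members with several measured probe sets had them on both sides of 0, and in heart 6 of 20. The share with all measured probe sets on 1 side was 50% of these members in TA, against 56.2% of all such genes. In heart it was 70%, against 53.5%. Wipi1 had 1 probe set at 221 in knockout TA against 130 in wild-type TA, while its brightest read 2586 in knockout TA against 2629 in wild-type TA.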
